A study of Mus musculus with 10 samples.

Results

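Collagens are the proteins of the extracellular matrix that wind 3 chains into a triple helix, and each chain has its own gene. In mouse colon, 44 genes whose symbol has the form Col, a number, the letter a and a number were taken from a table of 56691 genes, and 36 of the 44 had enough counts to be tested among 16545 genes kept. Fibrillar collagens such as types I and III form the tensile fibers of submucosa and lamina propria, whereas type IV forms the sheet-like network of basement membranes under epithelium and around vessels and muscle. Type VI forms beaded microfibrils near cell surfaces, and fibril-associated collagens decorate the fibers. Transmembrane collagens are anchored in the plasma membrane of the cell that makes them, although an outer part can be shed, as in *Col23a1*. Fibroblasts make most fibrillar collagen in the gut, and smooth muscle, endothelial and epithelial cells add basement membrane chains.

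RNA of colon was sequenced after poly(A) selection from 10 male C57BL/6 mice that were 8 weeks old when the experiment began. In the DSS group, 5 mice (DSS-1 to DSS-5) drank 3% dextran sulfate sodium, a chemical that injures the colon epithelium, for 7 days. In the ceAF group, another 5 mice (ceAF-1 to ceAF-5) drank the same solution for the same time and were then given early chick embryo amniotic fluid by gavage at 15 mL/kg for 10 days. The comparison asks how collagen transcripts in injured colon differed after the amniotic fluid, without an untreated group as a baseline. No sham gavage of the DSS group was described, so the fluid and the gavage cannot be told apart. DSS mice were followed beside ceAF mice into the days of gavage, but the text of the methods gives no day of tissue collection for either group, so whether the time since injury was equal is not known here. Reads counted on genes ranged from 16275884 to 19901549 per mouse in the DSS group (median 16426125) and from 14676471 to 18811795 in the ceAF group (median 16058782). All 9 markers of colon epithelium were present, led by *Car1* at a mean of 2778 FPKM (a level corrected for transcript length and sequencing depth), with *Muc2* at 403, *Cdx1* at 132 and *Cdx2* at 80.2 FPKM, as the tissue label requires.

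Collagen transcripts were a small and variable part of these libraries. As a share of all counts, the 44 genes took 0.170% in DSS-1, 0.0991% in DSS-2, 0.0903% in DSS-3, 0.0903% in DSS-4 and 0.104% in DSS-5. They took 0.0365% in ceAF-1, 0.111% in ceAF-2, 0.105% in ceAF-3, 0.159% in ceAF-4 and 0.0766% in ceAF-5. DSS-1 and ceAF-4 stood at the top, ceAF-1 and ceAF-5 at the bottom, and the groups overlapped over most of their range. Means ± SD over the 5 mice of a group were 0.111% ± 0.0337 (DSS) and 0.0977% ± 0.0453 (ceAF), a difference smaller than the spread within either group. These are samples of whole tissue, so fewer collagen-making cells and less collagen RNA per cell cannot be told apart.

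Divided by class, fibrillar collagens held the largest part of the summed FPKM of collagens, 40.8% ± 3.05 in DSS mice and 42.0% ± 4.37 in ceAF mice. Type IV chains followed with 25.9% ± 1.48 and 23.5% ± 2.07, and type VI chains with 20.2% ± 2.52 and 20.8% ± 3.33. The shares of these 3 large classes were steadier than their amounts, with a fibrillar share from 35.1% to 45.3% over the 10 mice while the fibrillar sum differed 5.73-fold between the lowest and the highest mouse. Not so for 4 smaller classes, where the fibril-associated share ran from 3.32% to 9.92% beside a 2.16-fold range of its sum, and the transmembrane share from 0.560% to 1.83% beside 2.47-fold. The share of the anchoring fibril gene *Col7a1* ran from 0.161% to 0.765% beside 3.67-fold, and that of *Col26a1* with *Col28a1* from 0.259% to 1.28% beside 1.79-fold, and all 4 shares were highest in ceAF-1. Fibril-associated collagens made up 5.22% ± 0.488 and 5.79% ± 2.65 of the collagen sum, and the multiplexins *Col15a1* and *Col18a1* of the basement membrane zone 5.43% ± 0.427 and 5.45% ± 1.27. Transmembrane collagens were rare, at 1.0% ± 0.0964 and 0.932% ± 0.529. The summed level of fibrillar collagens was 57.2 ± 21.0 FPKM in DSS mice and 53.0 ± 27.0 in ceAF mice, that of type IV 35.7 ± 10.1 and 29.3 ± 15.5, and that of type VI 27.4 ± 5.14 and 24.3 ± 8.33. In each of these 3 classes the group means lay closer together than 1 SD. The transmembrane sum was 1.37 ± 0.255 FPKM in DSS mice and 0.944 ± 0.227 in ceAF mice, with ceAF-4 at 1.32 above DSS-3 and DSS-4, and its difference was not tested.

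**Figure D1:**
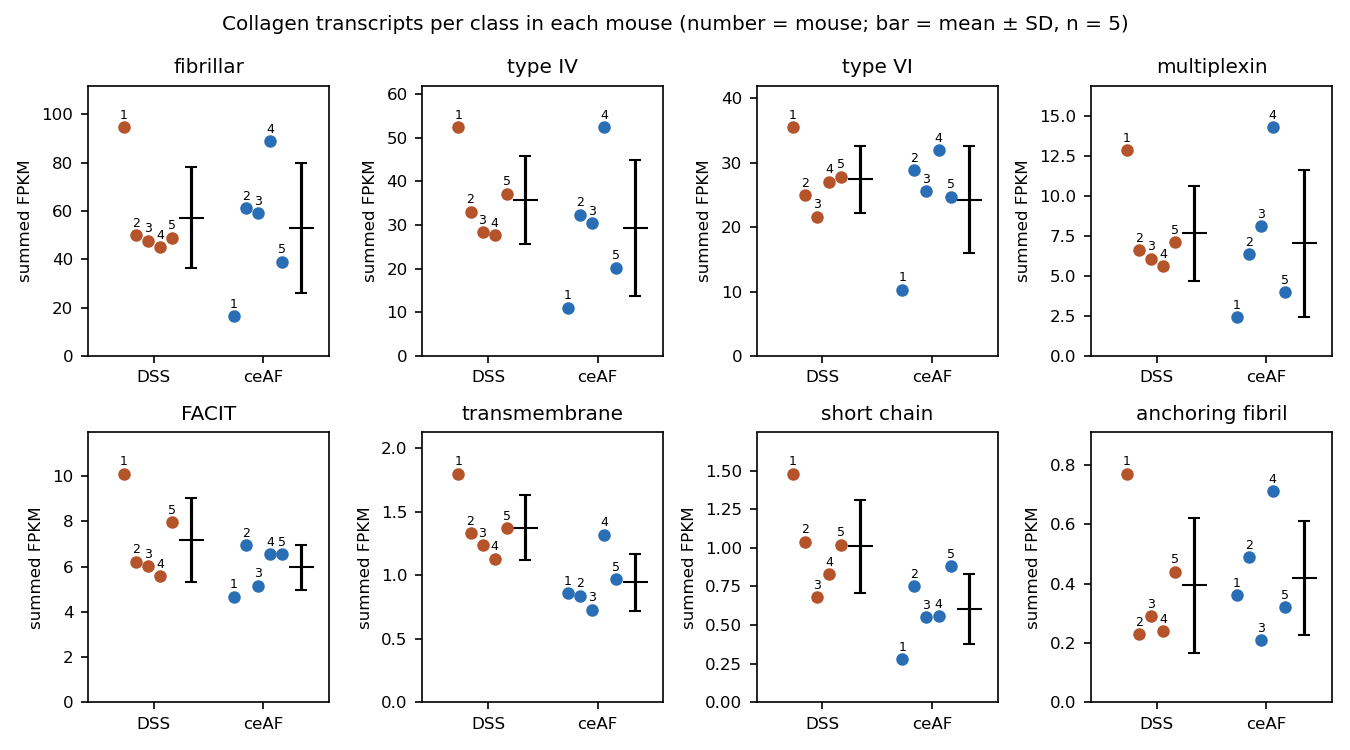
Summed FPKM (vertical axis, starting at 0) of the collagen genes of 8 classes in each of 5 DSS and 5 ceAF mice, with the number of the mouse above its point and the group mean ± SD beside the points. DSS-1 and ceAF-4 were the highest mice and ceAF-1 the lowest in the fibrillar, type IV, multiplexin and type VI sums, and the groups overlapped in all 8 classes.

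Each gene was compared between the groups with edgeR's quasi-likelihood test on counts, and p-values were adjusted by the Benjamini-Hochberg method over all genes tested. After adjustment 0 of 36 collagens passed 0.05, as did 0 of 16545 genes (0%), and the adjusted p-values of the collagens lay between 0.656 and 0.9998 in that edgeR test. DESeq2 also called 0 collagens, although it called 26 genes of the table. At an unadjusted p under 0.05 in the edgeR test, 2 of 36 collagens were lower in the ceAF group, *Col23a1* and *Col8a1*, where 3.67% of all genes tested were lower at that limit. In the other direction 0 of 36 collagens passed the same unadjusted limit, beside 3.26% of all genes tested. DESeq2, which fitted 44 collagens among 32419 genes, likewise placed 2 collagens lower and 0 higher at an unadjusted p under 0.05. Its share of all genes at that limit was not counted. There was no collagen whose groups failed to overlap, 0 of 36, while 1.24% of all genes had every mouse of either group above every mouse of the other. These shares are near those of the whole table and single out no direction for the collagens.

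The fitted direction was lower in the ceAF group for 30 of 36 collagens, against 48.6% of all genes, with a median log2 fold change (ceAF minus DSS) of −0.20 beside 0.01 for all genes. With upper quartile scaling 30 of 36 collagens were lower, and with DESeq2, which fitted all members, 38 of 44. This imbalance rested on few mice. Without DSS-1 it was 20 of 36 with a median of −0.05, without ceAF-1 23 of 36 with −0.06, and without ceAF-5 24 of 36 with −0.13. With both DSS-1 and ceAF-1 left out, a choice made after the values were seen, 16 collagens were lower and 20 higher, with a median of 0.03. DSS-1 had the largest collagen share of the DSS mice and ceAF-1 the smallest of the ceAF mice. Leaving out both therefore moves fold changes upward by choice. No opposite pair was left out, so this fit, here and below, cannot decide the direction. Without ceAF-4, in contrast, 32 of 36 were lower and the median was −0.36. Collagens also varied more between mice of a group than most genes did, with a median within-group SD of 0.61 on the log2 scale against 0.33 for all genes tested and a median standard error of the fold change of 0.33 against 0.21.

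**Figure D2:**
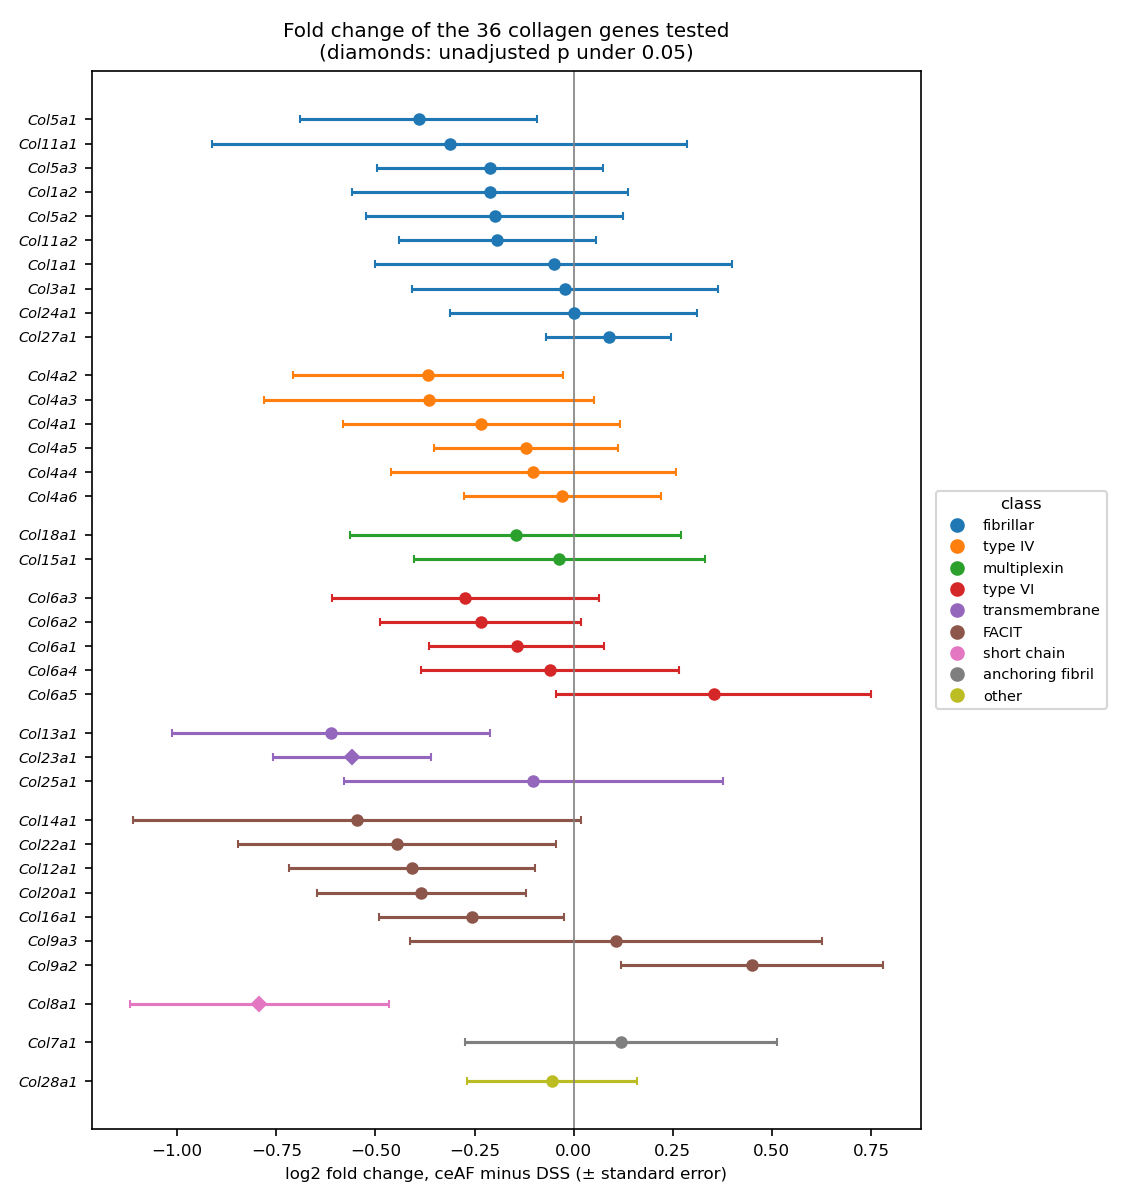
Log2 fold change (ceAF minus DSS, horizontal axis) with its standard error for each of the 36 collagen genes tested, grouped and colored by class, with diamonds for the genes at an unadjusted p under 0.05 in edgeR's quasi-likelihood test. Most points lie left of 0, 30 of 36, but most error bars are wide, and only *Col23a1* and *Col8a1* carry diamonds.

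Among the 11 fibrillar genes, 10 were tested. By fitted direction 8 had less in the ceAF group and 2 had more, with log2 fold changes from −0.39 to 0.09 and 0 at an unadjusted p under 0.05. Leaving out DSS-1 turned this count to 3 lower and 7 higher, and leaving out ceAF-1 to 5 and 5, with *Col11a1* lower at an unadjusted p under 0.05 in that last fit. Without ceAF-4, on the other side, all 10 were lower. *Col3a1*, which encodes the only chain of type III collagen, was the most abundant collagen gene, at 23.6 ± 8.67 FPKM in DSS mice and 23.1 ± 11.8 in ceAF mice. It lies on chromosome 1 from 45350698 to 45388866 on the forward strand (ENSMUSG00000026043), in a table whose genome build is not named. In counts scaled to library size by the TMM method (CPM, comparable between mice for the same gene), *Col3a1* was 367 in DSS-1, 209 in DSS-2, 198 in DSS-3, 199 in DSS-4, 171 in DSS-5, 63.6 in ceAF-1, 293 in ceAF-2, 280.4 in ceAF-3, 334 in ceAF-4 and 156 in ceAF-5. DSS-1 stood alone above 4 closely spaced DSS mice, while the ceAF mice spread from the lowest to the second highest value of all. The log2 fold change was −0.02 (standard error 0.39), and it turned to 0.22 without DSS-1, 0.22 without ceAF-1 and 0.09 without ceAF-5, with −0.19 without ceAF-4 at the other end.

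*Col1a1* and *Col1a2* encode the chains of type I collagen, the main collagen of the intestinal wall. *Col1a1* (ENSMUSG00000001506, chromosome 11, 94827050 to 94843868, forward strand) had 138 CPM in DSS-1, 62.0 in DSS-2, 58.4 in DSS-3, 59.8 in DSS-4, 69.3 in DSS-5, 19.5 in ceAF-1, 81.0 in ceAF-2, 76.5 in ceAF-3, 151 in ceAF-4 and 46.5 in ceAF-5. Here ceAF-4 was the highest mouse, just above DSS-1, and ceAF-1 the lowest, so that both ends of the range belonged to the ceAF group. Its log2 fold change was −0.05 (standard error 0.45), with 0.27 without DSS-1, 0.19 without ceAF-1, 0.08 without ceAF-5 and −0.46 without ceAF-4. *Col1a2* had a log2 fold change of −0.21 (standard error 0.35) and a level of 9.75 ± 3.27 FPKM in DSS mice and 8.39 ± 4.21 in ceAF mice. *Col5a1* and *Col5a2*, chains of the type V collagen that is built into type I fibers, had levels of 4.78 ± 1.66 and 4.04 ± 1.51 FPKM in DSS mice and 3.61 ± 1.44 and 3.48 ± 1.69 in ceAF mice. Together with *Col3a1*, all 5 of these abundant fibrillar genes were lowest in ceAF-1, and the highest mouse was 3.67 to 7.72 times the lowest. The remaining fibrillar genes were low in DSS mice, from 1.33 ± 0.543 FPKM of *Col5a3* and 1.13 ± 0.131 of *Col27a1*, which was highest in ceAF-4, down to 0.148 ± 0.0597 of *Col11a1*, a gene best known from cartilage. *Col2a1*, the main cartilage collagen, had 5 counts over all 10 mice and was not tested. Of 5 cartilage markers, *Acan*, *Comp*, *Matn1* and *Matn3* also had too few counts to be tested, and *Sox9*, which colon epithelium expresses, was the only member kept. Its list summed to 6.38, 9.48, 9.91, 11.6 and 13.0 FPKM in DSS-1 to DSS-5 and to 6.97, 8.49, 9.52, 8.23 and 8.20 in ceAF-1 to ceAF-5, nearly all of it *Sox9*, and their part in the result was not tested.

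All 6 genes of type IV collagen were tested, and all 6 were lower by fitted direction, with log2 fold changes from −0.37 to −0.03 and 0 at an unadjusted p under 0.05. With both DSS-1 and ceAF-1 left out, 3 were lower and 3 higher, and without DSS-3 4 were lower and 2 higher. *Col4a1* and *Col4a2* encode the chains found in nearly every basement membrane and far exceeded the other 4. *Col4a1* (ENSMUSG00000031502, chromosome 8, 11248423 to 11362826, reverse strand) had 207 CPM in DSS-1, 137 in DSS-2, 108 in DSS-3, 121 in DSS-4, 146 in DSS-5, 49.1 in ceAF-1, 131 in ceAF-2, 137 in ceAF-3, 221 in ceAF-4 and 73.0 in ceAF-5. As with *Col1a1*, the ceAF group held both the highest and the lowest mouse, and 2 of its mice lay below every DSS mouse. *Col4a2* (ENSMUSG00000031503, chromosome 8, 11362805 to 11499287, forward strand) had 140 CPM in DSS-1, 81.5 in DSS-2, 70.0 in DSS-3, 68.5 in DSS-4, 104 in DSS-5, 29.4 in ceAF-1, 84.2 in ceAF-2, 73.9 in ceAF-3, 123 in ceAF-4 and 49.3 in ceAF-5. DSS-1 was highest, ceAF-4 next, and ceAF-1 and ceAF-5 lay below the DSS mice. *Col4a1* had a log2 fold change of −0.23 (standard error 0.35) and *Col4a2* −0.37 (standard error 0.34). Without ceAF-4 they were −0.55 and −0.64, without ceAF-1 −0.03 and −0.17, and without DSS-1 −0.06 and −0.17, while without ceAF-5 *Col4a1* was at −0.09.

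The minor type IV chains behaved differently across mice. *Col4a5* and *Col4a6*, whose chains form networks under epithelia and around smooth muscle, were at 1.5 ± 0.423 and 0.442 ± 0.127 FPKM in DSS mice and at 1.37 ± 0.333 and 0.430 ± 0.0970 in ceAF mice. Both were highest in DSS-3, and *Col4a6* was lowest in DSS-1, the mouse with the most *Col4a2*. *Col4a3* and *Col4a4*, the chains of glomerular basement membrane, stayed below 0.1 FPKM on average in both groups, with 130 and 131 counts over the 10 mice.

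*Col18a1* and *Col15a1* encode multiplexins, collagens of the basement membrane zone that carry sugar chains and end in domains released as endostatin and restin. *Col18a1* had 63.6 CPM in DSS-1, 31.1 in DSS-2, 27.4 in DSS-3, 26.2 in DSS-4, 36.5 in DSS-5, 12.4 in ceAF-1, 29.8 in ceAF-2, 41.7 in ceAF-3, 65.3 in ceAF-4 and 17.5 in ceAF-5. *Col15a1* had 21.0 CPM in DSS-1, 13.6 in DSS-2, 12.8 in DSS-3, 13.7 in DSS-4, 11.5 in DSS-5, 5.88 in ceAF-1, 14.0 in ceAF-2, 15.2 in ceAF-3, 27.8 in ceAF-4 and 7.81 in ceAF-5. In both genes ceAF-4 and DSS-1 were highest and ceAF-1 and ceAF-5 lowest, with the DSS mice inside the range of the ceAF mice. The log2 fold changes were −0.15 (standard error 0.42) for *Col18a1* and −0.04 (standard error 0.37) for *Col15a1*, and both turned positive without DSS-1 (0.15 and 0.14), without ceAF-1 (0.06 and 0.16) and without ceAF-5 (0.02 and 0.12). Without ceAF-4 they were −0.53 and −0.42. *Col18a1* overlaps *Slc19a1* on the other strand, and since strand-specific counting is not stated, reads of the shared stretch may belong to either gene.

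Of 6 type VI genes 5 were tested, 4 lower and 1 higher by fitted direction, with 0 at an unadjusted p under 0.05. With both DSS-1 and ceAF-1 left out, the fit chosen after the values were seen, all 5 were higher. Without ceAF-1 alone 2 were lower and 3 higher. *Col6a1* had 86.5 CPM in DSS-1, 63.7 in DSS-2, 52.3 in DSS-3, 69.7 in DSS-4, 71.4 in DSS-5, 31.1 in ceAF-1, 76.6 in ceAF-2, 68.2 in ceAF-3, 70.9 in ceAF-4 and 64.2 in ceAF-5. Apart from the low ceAF-1, the 4 other ceAF mice lay within the range of the DSS mice. *Col6a2*, whose chain joins that of *Col6a1* in the same molecule, had 60.3 CPM in DSS-1, 40.1 in DSS-2, 36.8 in DSS-3, 52.5 in DSS-4, 51.4 in DSS-5, 18.5 in ceAF-1, 53.2 in ceAF-2, 45.0 in ceAF-3, 50.8 in ceAF-4 and 37.4 in ceAF-5. The picture was the same, with ceAF-1 far below and the rest mixed. The log2 fold change of *Col6a1* was −0.14 (standard error 0.22) with 0.03 without ceAF-1 and −0.04 without DSS-1, and that of *Col6a2* was −0.23 (standard error 0.25) with −0.05 without ceAF-1 and −0.14 without DSS-1. *Col6a3*, the longest of the classical type VI chains, was at 3.52 ± 1.06 FPKM in DSS mice and 2.90 ± 1.45 in ceAF mice. *Col6a4* and *Col6a5* are alternative chains at 1.96 ± 0.555 and 0.246 ± 0.0669 FPKM in DSS mice and 1.88 ± 0.997 and 0.312 ± 0.171 in ceAF mice, and *Col6a5* was the only type VI gene with a positive log2 fold change (0.35, standard error 0.40). *Col6a6* had 11 counts over the 10 mice and was not tested.

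The transmembrane collagens held the member with the smallest p-value. *Col23a1* (ENSMUSG00000063564, chromosome 11, 51180747 to 51474745, forward strand) encodes a membrane collagen whose outer part can be shed. It had 4.0 CPM in DSS-1, 4.10 in DSS-2, 3.71 in DSS-3, 2.88 in DSS-4, 4.32 in DSS-5, 2.59 in ceAF-1, 2.86 in ceAF-2, 1.92 in ceAF-3, 3.16 in ceAF-4 and 2.36 in ceAF-5. Only DSS-4 and ceAF-4 crossed, and every other DSS mouse lay above every ceAF mouse. The level was 0.668 ± 0.111 FPKM in DSS mice and 0.446 ± 0.0974 in ceAF mice, from 34 to 82 counts per mouse. The fitted log2 fold change lay at −0.56 (standard error 0.20). Unadjusted, the p-value of edgeR's quasi-likelihood test was 0.0168, and Benjamini-Hochberg adjustment brought it to 0.656. The exact two-sided permutation test over all ways to divide the mice gave p = 0.0159, where 0.00794 is the smallest value that 5 mice against 5 allow. Leaving out any 1 mouse kept the log2 fold change between −0.64 and −0.46 and the unadjusted p under 0.05, and the groups no longer overlapped without DSS-4 or without ceAF-4.

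*Col13a1*, a membrane collagen of cell junctions, had 3.54 CPM in DSS-1, 1.85 in DSS-2, 1.38 in DSS-3, 2.63 in DSS-4, 1.98 in DSS-5, 0.534 in ceAF-1, 1.17 in ceAF-2, 1.21 in ceAF-3, 2.80 in ceAF-4 and 1.65 in ceAF-5. Here ceAF-1, ceAF-2 and ceAF-3 lay below all DSS mice, but ceAF-4 was second only to DSS-1. Its log2 fold change was −0.61 (standard error 0.40) with −0.96 and an unadjusted p under 0.05 without ceAF-4, −0.39 without DSS-1 and −0.41 without ceAF-1. *Col25a1*, a neuronal membrane collagen, was at 0.160 ± 0.0592 FPKM in DSS mice and 0.142 ± 0.108 in ceAF mice and highest in ceAF-1, and without that mouse it too was lower at an unadjusted p under 0.05. *Col17a1*, a part of hemidesmosomes in squamous epithelium, had 50 counts over the 10 mice and was not tested.

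Of 9 fibril-associated genes 7 were tested, 5 lower and 2 higher by fitted direction, with log2 fold changes from −0.55 to 0.45 and 0 at an unadjusted p under 0.05. *Col16a1* had 26.1 CPM in DSS-1, 19.5 in DSS-2, 18.1 in DSS-3, 19.2 in DSS-4, 27.2 in DSS-5, 10.1 in ceAF-1, 25.4 in ceAF-2, 17.1 in ceAF-3, 16.2 in ceAF-4 and 23.3 in ceAF-5. DSS-5 and DSS-1 were highest and 3 ceAF mice lay below all DSS mice, among them ceAF-4, which was high in the fibrillar genes. *Col12a1*, whose product bridges fibers in tissue under tension, had 44.8 CPM in DSS-1, 21.6 in DSS-2, 19.5 in DSS-3, 16.1 in DSS-4, 27.8 in DSS-5, 13.9 in ceAF-1, 19.5 in ceAF-2, 16.8 in ceAF-3, 32.9 in ceAF-4 and 14.7 in ceAF-5. DSS-1 led by a wide margin, and most other mice lay close together in both groups. *Col16a1* had a log2 fold change of −0.26 (standard error 0.23), with −0.10 without ceAF-1 and −0.15 without DSS-5. *Col12a1* had −0.41 (standard error 0.31), with −0.12 without DSS-1 and −0.67 and an unadjusted p under 0.05 without ceAF-4. *Col14a1* was at 0.34 ± 0.346 FPKM in DSS mice and 0.224 ± 0.0627 in ceAF mice, with 0.93 FPKM in DSS-1 alone. *Col9a2* ran the other way, at 0.566 ± 0.0789 FPKM in DSS mice and 0.752 ± 0.367 in ceAF mice, where ceAF-1 (1.19) and ceAF-5 (1.11) stood above the 8 other mice. *Col9a1* and *Col19a1* had 6 and 5 counts over the 10 mice and were not tested.

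*Col8a1* (ENSMUSG00000068196, chromosome 16, 57444621 to 57575100, reverse strand) encodes a short-chain collagen made by vascular and other mesenchymal cells. It had 9.62 CPM in DSS-1, 7.65 in DSS-2, 3.71 in DSS-3, 6.40 in DSS-4, 6.30 in DSS-5, 1.68 in ceAF-1, 4.10 in ceAF-2, 3.89 in ceAF-3, 3.76 in ceAF-4 and 5.94 in ceAF-5. DSS-3 was the only DSS mouse within the range of the ceAF mice, and ceAF-1 was the lowest by a wide gap. The level was 0.870 ± 0.289 FPKM in DSS mice and 0.5 ± 0.220 in ceAF mice. The fitted log2 fold change lay at −0.79 (standard error 0.33). Its p-value in edgeR's quasi-likelihood test was 0.0334 before and 0.694 after Benjamini-Hochberg adjustment. The exact two-sided permutation test gave p = 0.0556. The unadjusted p in the edgeR test was no longer under 0.05 when DSS-1, DSS-2, ceAF-1, ceAF-2, ceAF-3 or ceAF-4 was left out, while the log2 fold change stayed between −1.0 and −0.60. Without DSS-3 the groups did not overlap. Its partner *Col8a2* (0.124 ± 0.0730 FPKM in the DSS group, 0.0960 ± 0.0662 in the ceAF group) and the growth plate collagen *Col10a1*, with 6 counts over the 10 mice, were not tested.

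*Col7a1* encodes the anchoring fibrils that tie epithelium to the tissue below, best known from skin. It had 7.59 CPM in DSS-1, 2.35 in DSS-2, 2.87 in DSS-3, 2.56 in DSS-4, 4.5 in DSS-5, 4.12 in ceAF-1, 5.08 in ceAF-2, 2.25 in ceAF-3, 7.04 in ceAF-4 and 3.13 in ceAF-5. High values of DSS-1 and ceAF-4 stood out again, but ceAF-1 lay in the middle. Its log2 fold change was 0.12 (standard error 0.39), with 0.49 without DSS-1 and 0.30 without ceAF-3, and it changed sign without ceAF-4 (−0.12), DSS-2 (−0.01) and DSS-4 (−0.00). *Col28a1*, a collagen found near peripheral glia, was among the steadiest members, with 3.25 CPM in DSS-1, 2.95 in DSS-2, 1.92 in DSS-3, 3.14 in DSS-4, 3.36 in DSS-5, 3.28 in ceAF-1, 2.47 in ceAF-2, 2.52 in ceAF-3, 2.39 in ceAF-4 and 3.41 in ceAF-5. DSS-3 was lowest and the groups were fully mixed, with a log2 fold change of −0.05 (standard error 0.21) that changed sign without DSS-5 (0.02), ceAF-2 (0.00) and ceAF-4 (0.01). *Col26a1* had 12 counts over the 10 mice and was not tested.

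ceAF-1 was the lowest of the 10 mice in 21 of 36 collagens, whereas it was lowest in 21.0% of all genes tested. DSS-1 was the highest in 16 of 36 collagens beside 16.0% of all genes, and ceAF-4 in 7 beside 10.1%. On the log2 scale relative to each gene's mean over the mice, the median collagen was at −0.83 in ceAF-1 and at 0.69 in DSS-1, against 0.01 and 0.00 for the median of all genes. ceAF-1 was nevertheless the highest mouse in *Col9a2*, *Col9a3*, *Col11a1* and *Col25a1*, all low in level. Mitochondrially encoded genes took 9.66% of counts in ceAF-1 and 9.74% in ceAF-5, the mice with the least collagen, against 4.53% to 7.24% in the others, and the part of this in the collagen levels was not tested.

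**Figure D3:**
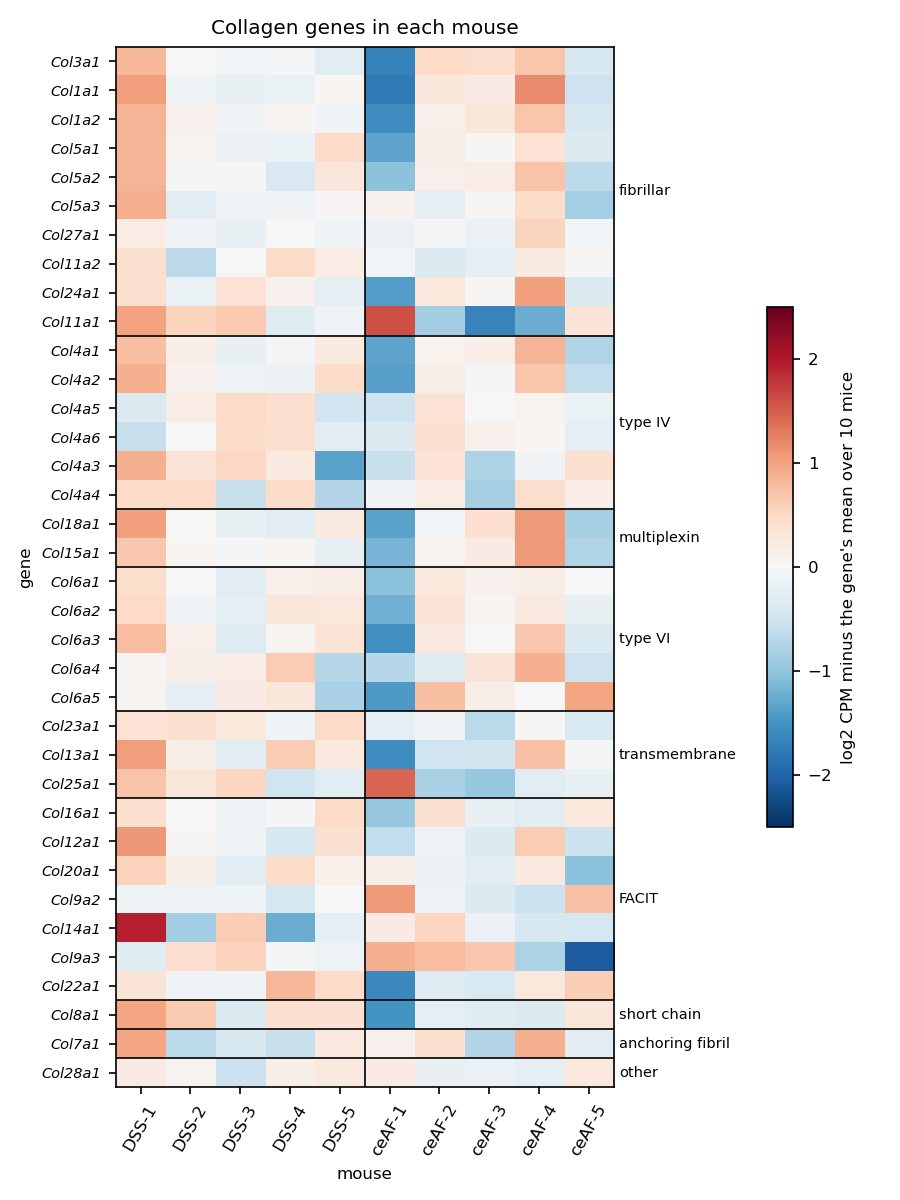
Log2 CPM of each of the 36 collagen genes tested (vertical axis, grouped by class) in each mouse (horizontal axis), relative to the gene's mean over the 10 mice, with red above and blue below that mean. The column of DSS-1 is mostly red and that of ceAF-1 mostly blue, except *Col9a2*, *Col9a3*, *Col11a1* and *Col25a1*, clearly red in ceAF-1, and 5 genes faintly red there. Over all mice values lie between −2.09 (*Col9a3* in ceAF-5) and 1.94 (*Col14a1* in DSS-1).

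The 8 fibroblast markers, led by *Dcn* with a mean of 18.8 FPKM, summed to 106, 43.3, 49.1, 35.0 and 46.3 FPKM in DSS-1 to DSS-5 and to 17.4, 49.3, 41.0, 50.6 and 48.7 FPKM in ceAF-1 to ceAF-5, with DSS-1 highest and ceAF-1 lowest. In CPM *Dcn*, *Dpt*, *Fbln1*, *Lum* and *Pdgfra* had the same highest and lowest mouse. *Fap*, in contrast, was highest in ceAF-1 (8.62 CPM), and *Mfap5* was lowest in ceAF-5 (0.495 CPM). Of the 7 fibroblast markers tested, 6 were lower and 1 higher by fitted direction, 0 at an unadjusted p under 0.05, and *Pi16* was too low to be tested. Without DSS-1 or ceAF-5 4 of these were lower, and without DSS-4, DSS-5, ceAF-2 or ceAF-4 1 passed the unadjusted limit. With both DSS-1 and ceAF-1 left out 3 were lower and 4 higher. For comparison with all marker lists, 48.6% of all genes tested were lower by direction and 3.67% were lower at that limit. Both shares belong to the fit of all 10 mice, and the share at that limit was not counted for fits without a mouse. The 7 endothelial markers, led by *Pecam1* at 4.05 FPKM, summed to 19.9, 10.9, 10.9, 12.1 and 10.6 in DSS-1 to DSS-5 and to 3.81, 8.64, 9.85, 19.6 and 8.46 in ceAF-1 to ceAF-5, with DSS-1 and ceAF-4 at the top as in *Col4a1*, *Col15a1* and *Col18a1*. All 7 were lower, 0 at an unadjusted p under 0.05 but 3 without ceAF-4, and 2 were lower with both DSS-1 and ceAF-1 left out. The 8 smooth muscle markers, led by *Actg2* at 204 FPKM, summed to 915, 750.4, 532, 451 and 1017 in DSS-1 to DSS-5 and to 361, 1002, 395, 527 and 850.0 in ceAF-1 to ceAF-5, and all 8 were lower by fitted direction, or 5 of 8 without DSS-5, without ceAF-1 or without ceAF-3, with 0 at an unadjusted p under 0.05 in each of these fits. With both DSS-1 and ceAF-1 left out 4 of 8 smooth muscle markers were lower. Their order differed from that of the collagens, since ceAF-2 was among the highest and ceAF-4 was not, although ceAF-1 was lowest in both. The 5 pericyte markers, led by *Rgs5* at 31.6 FPKM, summed to 65.5, 40.8, 62.4, 33.2 and 44.7 in DSS-1 to DSS-5 and to 38.7, 36, 27.0, 45.4 and 33.1 in ceAF-1 to ceAF-5. Of these 4 were lower, *Kcnj8* (log2 fold change −1.04) and *Abcc9* (−0.86) at an unadjusted p under 0.05 in the edgeR test, and 0 without DSS-1. Colon epithelium markers summed to 6167, 9455, 11820, 9937 and 3951 FPKM in DSS-1 to DSS-5 and to 13450, 6339, 8271, 6028 and 5719 in ceAF-1 to ceAF-5, but this order rests largely on *Car1*, which alone had 8530 FPKM in ceAF-1. The other markers did not rank ceAF-1 alike. It was the highest mouse in *Epcam* (2443 CPM) and *Cdx2* (307.9 CPM) and the lowest in *Muc2* (3294 CPM). The part of these cell type markers in the collagen levels was not tested.

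The 4 neutrophil markers, led by *S100a9*, summed to 2035, 15.5, 242, 18.1 and 98.0 FPKM in DSS-1 to DSS-5 and to 1.16, 13.1, 9.29, 48.6 and 25.9 in ceAF-1 to ceAF-5, so the mice with the most and the least collagen were also highest and lowest in these. All 4 were lower at an unadjusted p under 0.05, 1 without DSS-1. All 5 T-cell markers were lower at that limit, led by *Trac* at 11.8 FPKM, and 2 of 5 macrophage markers, *Adgre1* (−0.58) and *C1qa* (−0.62), with 0 of the macrophage markers left without DSS-1, DSS-2, DSS-3, ceAF-1, ceAF-4 or ceAF-5 and 1 without DSS-4 or ceAF-2. Of the T-cell markers *Cd5* stayed under the limit only in the fits without DSS-5 or ceAF-2, while the 4 others stayed under it without any 1 mouse, and 3 of 5 passed with both DSS-1 and ceAF-1 left out. The T-cell sums were 31.7, 28.9, 30.1, 30.5 and 11.2 FPKM in DSS-1 to DSS-5 and 7.04, 17.8, 14.1, 7.19 and 10 in ceAF-1 to ceAF-5. By sum DSS-1 was highest and ceAF-1 lowest, but only just beyond DSS-4 and ceAF-4. In CPM the single markers did not share this order, with *Cd3e*, *Trac* and *Cd2* lowest in ceAF-4, *Cd5* in DSS-5 and *Cd6* in ceAF-5. DSS-1 was the highest mouse in *Cd2* and *Cd5* only. DSS-5 and ceAF-4 were low, unlike in the collagens. Macrophage markers summed to 104, 74.4, 79.6, 81.1 and 53.3 FPKM in DSS-1 to DSS-5 and to 21.5, 62.4, 69.2, 49.2 and 65.7 in ceAF-1 to ceAF-5. B-cell markers, led by *Cd79a*, summed to 82.9, 14.5, 12, 13.8 and 13.7 FPKM in DSS-1 to DSS-5 and to 2.57, 14.1, 24.4, 4.29 and 39.5 in ceAF-1 to ceAF-5. DSS-1 was highest and ceAF-1 lowest here as in the collagens, whereas ceAF-4 was low and ceAF-5 high, unlike in the collagens. Of 4 B-cell markers 4 were lower, of 4 enteric glia markers 3, and of the sparse mesothelium and adipocyte lists only *Msln* and *Cfd* were tested, with 0 at an unadjusted p under 0.05 in all 4 lists. Without DSS-1 0 of 4 B-cell markers were lower, and without ceAF-1 *Cfd* changed sign and 2 glia markers passed the unadjusted limit. Squamous markers, led by *Krt10* at 1.16 FPKM, summed to 3.63, 1.63, 2.41, 1.35 and 1.95 FPKM in DSS-1 to DSS-5 and to 1.92, 2.08, 2.12, 6.09 and 1.91 in ceAF-1 to ceAF-5, highest in ceAF-4 and DSS-1, the mice that were also highest in *Col7a1*. *Krt13* and *Krt14* were highest in these mice too, whereas *Krt10* was highest in ceAF-1 (3.66 CPM, against 2.51 in ceAF-4 and 2.67 in DSS-1). *Krt5* and *Trp63* were too low to be tested. All 3 others were higher in the ceAF group by fitted direction, or 2 of 3 without ceAF-1 or without ceAF-4, and 0 of 3 passed the unadjusted limit. The part of these cells in the collagen levels was not tested either.

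Chains that assemble into the same molecule were compared by the ratio of their levels. The ratio of FPKM of *Col1a1* to *Col1a2* was 1.41 in DSS-1, 1.06 in DSS-2, 1.15 in DSS-3, 1.04 in DSS-4, 1.35 in DSS-5, 1.05 in ceAF-1, 1.36 in ceAF-2, 1.16 in ceAF-3, 1.71 in ceAF-4 and 1.13 in ceAF-5. The mice with the most type I collagen, ceAF-4 and DSS-1, also had the highest ratios. For *Col4a1* to *Col4a2* the ratio was 1.40 ± 0.131 in DSS mice and 1.48 ± 0.139 in ceAF mice, with a range of 1.24 to 1.64 although each gene differed more than 4-fold between mice. For *Col6a1* to *Col6a2* it was 2.72 ± 0.183 and 2.95 ± 0.269, for *Col5a1* to *Col5a2* 1.2 ± 0.11 and 1.07 ± 0.205 with a range of 0.879 to 1.39, and for *Col4a5* to *Col4a6* 3.42 ± 0.434 and 3.18 ± 0.241. Exact two-sided permutation tests on the log2 ratios of these 5 pairs gave p-values of 0.587 for type I, 0.302 for *Col4a1* and *Col4a2*, 0.159 for type VI, 0.230 for type V and 0.333 for *Col4a5* and *Col4a6*. After Benjamini-Hochberg adjustment over the 5 pairs the smallest of these exact permutation p-values was 0.417. A difference of ratio between the groups was thus not shown for any pair, which does not mean that the ratios were equal.

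The log2 CPM of partner chains was correlated over the 10 mice. Pearson's r was 0.978 and Spearman's rho 0.939 for *Col4a1* and *Col4a2* (permutation test with 100000 resamples, p = 2e-05 and 0.00019, adjusted over 5 pairs 3.33e-05 and 0.000317). Without ceAF-1 and ceAF-5, the mice farthest from the median, r was 0.927. For *Col1a1* and *Col1a2* r was 0.974 and rho 0.939 (permutation p = 0.00011 and 0.00026, adjusted 0.000138 and 0.000325), with r = 0.946 without ceAF-1 and ceAF-4. For *Col6a1* and *Col6a2* r was 0.977 and rho 0.952 (permutation p = 2e-05 and 9e-05, adjusted 3.33e-05 and 3e-04), with r = 0.897 without ceAF-1 and DSS-3. For *Col5a1* and *Col5a2* r was 0.929 and rho 0.952 (permutation p = 2e-05 and 0.00012, adjusted 3.33e-05 and 3e-04), with r = 0.878 without ceAF-1 and DSS-1. For *Col4a5* and *Col4a6* r was 0.922 and rho 0.903 (permutation p = 5e-04 and 0.00087, adjusted 5e-04 and 0.00087), with r = 0.961 without ceAF-1 and DSS-5. Every pair held without its 2 most distant mice, and with each mouse's deviation taken from its own group mean r was 0.930 to 0.979 over the 5 pairs. Such values were not particular to partners. Among the 40 other pairings of the same 10 genes, r ran from −0.0693 to 0.978 with a median of 0.859 (a description over the same 10 mice), 10 of the 40 reached the lowest r of a partner pair, and *Col1a1* and *Col4a1*, of different molecules, had r = 0.966.

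Several partner chains are also neighbors in the genome, a feature that the choice by symbol did not use. Within 250000 bases, 8 pairs of neighboring collagen genes were found, 7 of them with no other gene between. The type IV genes formed 3 pairs that start head to head on opposite strands, *Col4a1* and *Col4a2* on chromosome 8, whose annotated ends overlap by 22 bases, *Col4a3* and *Col4a4* on chromosome 1 with 71 bases between them, and *Col4a5* and *Col4a6* on chromosome X with 1308 bases between them. *Col3a1* and *Col5a2* lay tail to tail on chromosome 1, 24614 bases apart, as did *Col9a1* and *Col19a1*, 9205 bases apart. *Col6a1* and *Col6a2* lay in the same direction on chromosome 10 with 1 other gene between them, and *Col6a4*, *Col6a5* and *Col6a6* in a row on chromosome 9. Reads in the short overlap of *Col4a1* and *Col4a2* could be counted for either gene.

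Because *Col4a1* and *Col4a2* moved together and share their start region, and because *Col3a1* and *Col1a2* were among the most abundant fibrillar genes, the promoters of these 4 genes are shown. They come from RefSeq (GRCm38.p6), whose positions differ from those of the deposited table, and each covers 250 bases before to 50 after the start. Of the 44 collagens 35 had an entry, in 38 windows, and *Col1a1*, *Col2a1*, *Col4a3*, *Col5a2*, *Col9a3*, *Col12a1*, *Col14a1*, *Col22a1* and *Col26a1* had none. Capitals mark matches to 3 short motifs searched on both strands: TATAAA (the TATA box), CCAAT (the CCAAT box) and GGGCGG (the GC box). No match overlapped another.
*Col4a1* (chr8:11312777-11313076, reverse strand): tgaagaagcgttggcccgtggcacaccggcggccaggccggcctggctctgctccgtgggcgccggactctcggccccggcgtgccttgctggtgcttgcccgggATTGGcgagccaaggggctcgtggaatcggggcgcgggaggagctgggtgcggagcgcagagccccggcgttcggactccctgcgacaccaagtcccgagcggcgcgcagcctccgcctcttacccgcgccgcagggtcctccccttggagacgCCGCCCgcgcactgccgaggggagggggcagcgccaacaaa
*Col4a2* (chr8:11312555-11312854, forward strand): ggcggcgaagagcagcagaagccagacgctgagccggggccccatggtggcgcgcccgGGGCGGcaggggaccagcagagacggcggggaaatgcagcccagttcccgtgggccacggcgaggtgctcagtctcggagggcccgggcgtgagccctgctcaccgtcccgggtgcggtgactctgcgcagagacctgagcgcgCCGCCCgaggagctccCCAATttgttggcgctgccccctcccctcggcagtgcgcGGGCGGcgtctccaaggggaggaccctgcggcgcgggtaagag
*Col3a1* (chr1:45311288-45311587, forward strand): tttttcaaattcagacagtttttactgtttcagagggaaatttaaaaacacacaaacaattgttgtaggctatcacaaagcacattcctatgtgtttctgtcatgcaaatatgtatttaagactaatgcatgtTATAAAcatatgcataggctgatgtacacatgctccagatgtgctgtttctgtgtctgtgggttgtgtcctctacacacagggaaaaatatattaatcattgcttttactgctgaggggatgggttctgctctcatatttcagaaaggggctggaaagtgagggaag
*Col1a2* (chr6:4505368-4505667, forward strand): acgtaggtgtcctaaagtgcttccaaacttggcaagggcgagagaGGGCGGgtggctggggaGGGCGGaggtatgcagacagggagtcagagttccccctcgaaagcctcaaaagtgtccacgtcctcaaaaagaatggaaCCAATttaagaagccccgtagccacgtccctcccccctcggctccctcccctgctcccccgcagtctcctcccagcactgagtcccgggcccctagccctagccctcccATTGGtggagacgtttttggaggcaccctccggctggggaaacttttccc
The windows of *Col4a1* and *Col4a2* share 78 bases, chr8:11312777-11312854, and their starts lie 21 bases apart. The shared stretch holds 1 GGGCGG match, which stands in capitals in both windows because it is read from opposite strands. *Col4a2* had 3 GGGCGG matches and 1 CCAAT match, *Col4a1* 1 of each, and both windows were rich in G and C (74.0% in *Col4a1* and 73.7% in *Col4a2*, against a median of 52.7% for all promoters of the same length). *Col1a2* had 2 CCAAT and 2 GGGCGG matches at 61.0% G and C, whereas *Col3a1* had 1 TATAAA match and 37.7%. GGGCGG was present in 23 of 38 collagen windows (60.5%) and in 35.7% of 32851 promoter windows, CCAAT in 13 (34.2%) and in 37.4%, and TATAAA in 5 (13.2%) and in 13.6%. A match is a description of letters and not of a bound site.

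Making collagen takes a long chain of enzymes, chaperones and cross-linkers, and 66 genes of collagen making and handling were followed beside the collagens. After adjustment 0 of the 59 tested were called. By fitted direction 50 were lower in the ceAF group and 9 higher, against 48.6% of all genes lower. As with the collagens themselves, the count fell to 40 of 59 without DSS-1 and to 25 of 59 with both DSS-1 and ceAF-1 left out. At an unadjusted p under 0.05 in the edgeR test, 2 of 59 were lower, *Tnc* and *Tgfb2*, where 3.67% of all genes tested were lower. Higher at that limit were 0 of 59, beside 3.26% of all genes. Neither *Tnc* nor *Tgfb2* passed it without DSS-1, DSS-5, ceAF-2, ceAF-3 or ceAF-5, nor *Tnc* without ceAF-1 or *Tgfb2* without ceAF-4. Leaving out mice also brought other genes under the limit. The list had 0 lower without DSS-1, 1 (*Mmp8*) without ceAF-3 or ceAF-5, 3 (*Lum*, *Mmp9* and *P3h4*) without DSS-5, 4 without DSS-2 and 6 without DSS-4 or ceAF-4, and 1 higher without ceAF-2. The share of all genes under the limit in these fits was not counted, so these counts cannot be set against 3.67%. *Tnc* encodes tenascin C, a matrix protein of wounded tissue, and had 151 CPM in DSS-1, 55.3 in DSS-2, 47.6 in DSS-3, 54.4 in DSS-4, 141 in DSS-5, 32.3 in ceAF-1, 63.4 in ceAF-2, 39.2 in ceAF-3, 64.0 in ceAF-4 and 56.2 in ceAF-5. DSS-1 and DSS-5 lay far above the 8 other mice, among which the groups were mixed. The log2 fold change of *Tnc* was −0.82 (standard error 0.36), with an adjusted p-value of 0.717 by Benjamini-Hochberg in edgeR's quasi-likelihood test. *Tgfb2*, a growth factor that induces collagen genes in fibroblasts, had a log2 fold change of −0.77 (standard error 0.33), with an adjusted p-value of 0.703 by Benjamini-Hochberg in edgeR's quasi-likelihood test. It had 7.30 CPM in DSS-1, 4.85 in DSS-2, 5.39 in DSS-3, 3.39 in DSS-4, 12.9 in DSS-5, 4.66 in ceAF-1, 3.84 in ceAF-2, 3.02 in ceAF-3, 4.06 in ceAF-4 and 4.29 in ceAF-5. DSS-5 stood far above, and DSS-4 was the only DSS mouse within the range of the ceAF mice.

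By role, the collagen-modifying hydroxylases and sugar transferases were led by *P4hb* at 230.3 FPKM, an enzyme subunit that secretory epithelium also needs, with 11 of 14 tested lower by fitted direction. Genes grouped under collagen chaperoning and export, where *Creb3l1* had the highest level at 42.5 FPKM, had 4 of 7 lower, and 2 of 7 without DSS-5 or without ceAF-1. Propeptide removal, led by *Pcolce* at 3.15 FPKM, had 4 of 4 lower but 0 of 4 without DSS-1, 1 of 6 then tested without ceAF-1 and 2 of 5 then tested without DSS-3. The cross-linking lysyl oxidases, led by *Loxl2* at 3.84 FPKM, had 4 of 5 lower, and 2 of 5 without DSS-1. Proteins that bind collagen fibers, led by *Sparc* at 35.0 FPKM, had 8 of 8 lower, and collagen receptors and uptake, led by *Itgb1* at 87.4 FPKM, had 7 of 9 lower. Collagen-cleaving proteases, led by *Mmp14* at 12.6 FPKM, had 5 of 5 lower, and the Tgf-beta axis, led by *Tgfbr2* at 9.84 FPKM, had 7 of 7 lower. With both DSS-1 and ceAF-1 left out, 5 of 14 hydroxylases and sugar transferases, 5 of 8 fiber binders and 6 of 9 genes of receptors and uptake were lower. In that fit 4 of 7 genes of chaperoning and export, 0 of 4 of propeptide removal and 1 of 5 lysyl oxidases were lower. So were 1 of 5 proteases and 3 of 7 genes of the Tgf-beta axis. Summed FPKM of the lysyl oxidases was 14.8, 6.66, 7.93, 6.47 and 9.50 in DSS-1 to DSS-5 and 2.40, 8.02, 7.19, 11.8 and 5.56 in ceAF-1 to ceAF-5, with DSS-1 and ceAF-4 high and ceAF-1 low, as for the fibrillar collagens they cross-link.

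The 16 basement membrane partners of type IV collagen, which include laminins, nidogens and perlecan, were led by *Lamb3* at 44.1 FPKM. By fitted direction 11 were lower and 5 higher, beside 48.6% of all genes lower. At an unadjusted p under 0.05, 0 of the 16 partners passed in either direction. Without DSS-1 they were split 8 and 8, without ceAF-1 7 and 9, and with both left out 3 were lower and 13 higher, of which *Lama1* and *Lama5* passed an unadjusted p of 0.05. Without ceAF-4, on the other side, 13 were lower and 3 higher. The partners that share the type IV sheet differed in sign, with *Nid1* at −0.18 (standard error 0.27), *Hspg2* at −0.28 (standard error 0.21) and *Lamc1* at −0.34 (standard error 0.33), and *Lama3* at 0.37 (standard error 0.33) and *Agrn* at 0.33 (standard error 0.31). Each of these log2 fold changes lay within 2 standard errors of 0.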

How the data were processed

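The authors deposited 1 table that holds, per gene and mouse, the raw count and the FPKM derived from that count. The submitters' processing notes name cutadapt 1.9.1 and HISAT2 2.2.1, while the counting program, strand setting and genome build are not given in the sources used here. Counts were analyzed with edgeR 4.0.16 in R 4.3.3: filterByExpr (minimum count 10), TMM scaling, the quasi-likelihood test for group, two-sided, and Benjamini-Hochberg adjustment over 16545 genes. Standard errors were taken from the log2 fold change and its F statistic. CPM per mouse used the same scaling; log2 values added a prior count of 1. Exact permutation tests used every assignment of the mice. Alternatives used DESeq2 1.42.0, limma 3.58.1 on log2 FPKM, other filters and scaling, the replicate number as a block, and each mouse left out. Genes without a symbol (2639, 4.66% of the table, at most 0.132% of counts) cannot enter the choice by symbol. Grouping came from the sample labels, doses and times from the study's methods. The scripts were checked on simulated counts. Members, classes and lists were chosen from general knowledge with earlier results of these data known. Values per mouse are given for the members of each class with the highest mean FPKM, at most 2, and for collagens at an unadjusted p under 0.05. *Col5a1*, *Col5a2*, *Col9a2*, *Col14a1* and other members given by level, and the basement membrane partners given singly, were named after their values were seen. The other pairings of the partner genes were correlated after the values were seen. Plots used matplotlib 3.10.9 under Python 3.11.15.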

Additional observations from a re-analysis of the deposited data

Results flagged for a closer look

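For named collagens (CPM, or FPKM for *Col8a2* and *Col26a1*), the FPKM sums of 9 classes and the ratios of 5 partner pairs, Dixon's ratio relates how far the outermost of 5 mice stands from the next to the whole spread of its group. The ratio exceeded 0.71, the critical value, in 9 of 62 groups, where chance gives about 1 in 20, or 3.1, and the 9 are not independent because classes contain the genes.

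DSS-1 was far above the other DSS mice in *Col1a1* (gap over range 0.864, 138 CPM against 58.4 to 69.3), *Col3a1* (0.809, 367 against 171 to 209), *Col15a1* (0.771, 21.0 against 11.5 to 13.7) and *Col18a1* (0.724, 63.6 against 26.2 to 36.5). The same mouse stood apart in the summed FPKM of fibrillar collagens (0.9, 94.7 against 45.0 to 49.9) and of multiplexins (0.793, 12.8 against 5.61 to 7.11).

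ceAF-1 was far below the other ceAF mice in *Col6a1* (0.727, 31.1 CPM against 64.2 to 76.6). DSS-3 was far below the other DSS mice in *Col28a1* (0.714, 1.92 CPM against 2.95 to 3.36) and therefore in the sum of *Col26a1* and *Col28a1* (0.714, 0.42 FPKM against 0.62 to 0.70). What set these mice apart was not tested.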

How the results depend on the processing

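No collagen passed an adjusted p of 0.05 under any alternative tried. Genes of the whole table passing it numbered 26 with DESeq2, 1 and 5 with limma on log2 FPKM with pseudocounts of 1 and 0.1, and 0 to 3 with each mouse left out. The mice share replicate numbers between groups, but nothing states that a number pairs them, and mice with the same number correlated at −0.249, −0.136, −0.00428, −0.159 and 0.286, with only mouse 5 closest to its own number. With the replicate number as a block (replicate block), 1 collagen, *Col23a1*, was lower at an unadjusted p under 0.05 while *Col8a1* no longer was, and 0 genes passed after adjustment. With each mouse left out 1 to 3 collagens were lower at that limit, and 0 to 1 had groups that did not overlap. With both DSS-1 and ceAF-1 left out, chosen after the values were seen, 1 was lower. Without a filter on low counts 1 collagen was higher, *Col2a1*, from 5 counts. With each mouse left out the difference of the log2 ratio of *Col1a1* to *Col1a2* ran from −0.0278 to 0.148, below 0 only without ceAF-4.

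Of 283 log2 fold changes of 15 named collagens under alternatives, 256 kept their direction and 27 reversed, and 0 passed adjustment, the lowest adjusted p in edgeR, DESeq2 or limma being 0.399. Reversals came only from leaving out mice. With both DSS-1 and ceAF-1 left out, log2 fold changes were 0.45 for *Col3a1*, 0.51 for *Col1a1*, 0.13 for *Col4a1*, 0.0229 for *Col4a2*, 0.35 for *Col18a1*, 0.33 for *Col15a1*, 0.12 for *Col6a1* and 0.0419 for *Col6a2*. With each mouse left out they ranged from −0.19 to 0.22 for *Col3a1*, −0.46 to 0.27 for *Col1a1*, −0.53 to 0.15 for *Col18a1*, −0.42 to 0.16 for *Col15a1*, −0.214 to 0.0262 for *Col6a1*, −0.12 to 0.49 for *Col7a1* and −0.161 to 0.0178 for *Col28a1*. The cause was not tested. The rarest members, *Col2a1*, *Col9a1*, *Col10a1* and *Col19a1*, had 5 or 6 counts in all, too few for the edgeR filter.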
